A study of Mus musculus with 20 samples.

Results

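The genes described here make, hydroxylate, carry or attach sialic acid, and were followed across sorted CD4 T cells of mice: Gne, Nans, Cmas, Cmah, Slc35a1, B4galt1 and St6gal1. Members were the probes whose gene name in the scanner files was one of these symbols, which gave 10 probes for 7 genes among 39429 probes for 24325 gene names on the array. All 10 probes were well above background on all 20 arrays and none was saturated. Probes were tested where both arrays of at least 1 group were above background (22264 probes), and all 10 passed this filter. A probe was called changed where its log2 fold change was 1 or more in size and its adjusted p was under 0.05.

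RNA of 12 sorted groups was hybridised to 20 single-colour arrays. All mice carried the Foxp3 reporter allele of strain B6.Cg-Foxp3<tm1Mal>, in which cells that express Foxp3 fluoresce green (GFP), and were 8 to 14 weeks old. Each array held RNA pooled from 8 to 15 mice, and the study used females and males. Mice immunised subcutaneously with keyhole limpet haemocyanin in alum gave the cells of peripheral lymph nodes (pLN), at day 12 (d12, 2 arrays per group) and day 25 (d25, 1 array per group). Peyer's patches (PP) gave the other cells (2 arrays per group), and their labels name no immunisation. In pLN, naive T cells were GFP- PD1- GL7-, regulatory T (Treg) cells were GFP+ PD1- GL7-, follicular helper (TFH) cells were GFP- PD1hi GL7+, and follicular regulatory (TFR) cells were GFP+ PD1hi whether or not they bore GL7. In PP the same gates gave Treg and TFR cells, and TFH cells were divided into GL7+ and GL7- cells. By the series' design text the arrays of a group came from independent experiments, each on its own pool of cells. In bulk RNA fewer expressing cells and less RNA per cell cannot be told apart.

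GL7 is a monoclonal antibody that binds a glycan, not a protein: N-acetylneuraminic acid (Neu5Ac) joined in alpha 2,6 linkage to galactose at the end of an N-glycan antenna. GNE and NANS build Neu5Ac in the cytosol, CMAS activates it to CMP-Neu5Ac in the nucleus, SLC35A1 carries CMP-sialic acid into the Golgi, B4GALT1 adds the galactose and ST6GAL1 adds the sialic acid. CMAH hydroxylates CMP-Neu5Ac to the N-glycolyl form (Neu5Gc), which the antibody binds poorly, and a low level of Cmah is a known trait of germinal centre B cells that stain with GL7.

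Cmah was the one member called in any comparison, and its upstream sequence is shown for that reason. RefSeq gives 2 starts for the gene on build GRCm38.p6, and 6 of the 7 members had an entry in the promoter table. The 250 bases before each Cmah start are printed 5′ to 3′ on the plus strand, with the letters CAGNTG, a form of the E-box that basic helix-loop-helix factors read, in capitals on either strand.
Cmah start 1, chr13:24327154-24327403: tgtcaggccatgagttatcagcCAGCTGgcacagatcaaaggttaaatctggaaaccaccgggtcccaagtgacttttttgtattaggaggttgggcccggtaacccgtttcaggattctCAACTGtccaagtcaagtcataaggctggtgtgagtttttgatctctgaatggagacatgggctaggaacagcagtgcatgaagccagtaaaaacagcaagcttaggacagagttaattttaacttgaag
Cmah start 2, chr13:24414872-24415121: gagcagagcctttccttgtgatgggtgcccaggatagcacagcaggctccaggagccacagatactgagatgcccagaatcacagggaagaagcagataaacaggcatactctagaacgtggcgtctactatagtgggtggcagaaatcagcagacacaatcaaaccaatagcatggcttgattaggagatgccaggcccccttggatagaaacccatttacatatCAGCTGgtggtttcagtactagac
The first window held 2 matches to CAGNTG and the second 1, and 44.8% of the 32851 windows of this length in the table held at least 1. The letters TTCNNNGAA, the core that BCL6 and STAT proteins read, occurred in neither window and in 7.02% of all windows. The starts had GC contents of 45.6% and 49.6%, against a median of 52.4% over all windows.

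The arrays lay on 5 slides of 4 arrays: slides 1 and 2 each held the 4 pLN d12 groups once, slide 3 held pLN d25, and slides 4 and 5 each held the 4 PP groups once. Slides 1 and 4 were labelled from 50 ng of RNA and the others from 40 ng. The sort was visible in the markers: Foxp3 lay between 13409 and 35129 in Treg and TFR cells and between 27 and 192 elsewhere. Slide 4 stood apart from the rest. There, 13 of 13 B-cell markers were above background on all 4 arrays, with a summed intensity of 25183 to 197107 against 3043 to 25379 on the other slides. The local background was highest on the second pLN d12 TFR array (268, against 24 to 78 elsewhere). The 7 epithelial markers summed to 11952 to 35974 on slide 4 and to 264 to 2290 elsewhere. Differences of Cmah within PP are therefore given within slide 5 as well.

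Cmah was highest in naive T cells, intermediate in Treg cells and lower in follicular cells, with its lowest readings in TFH cells of PP. Its lead probe (the brighter of 2; chromosome 13, 24562356 to 24562415, mm9) spanned 224 to 5626 normalised intensity units over the 20 arrays, a 25.1-fold range. Its second probe (24562114 to 24562173) spanned 100 to 2492, a 24.9-fold range. No other member ranged over more than 2.56-fold by its lead probe. On mm9 the lead probes of B4galt1 (40751739 to 40751798), Gne (44049701 to 44049760), Nans (46515457 to 46515516) and Slc35a1 (34611244 to 34611303) lie on chromosome 4. Beside Cmah, called by both its probes, no member passed limma's F test for any difference among the 12 groups (lead probe of Cmah, limma adjusted p = 1.1e-04; threshold 0.005), a test that called 17.3% of all probes.

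The lead Cmah probe read 5078 and 5626 in the 2 arrays of pLN d12 naive T cells, 2360 and 3002 in Treg cells, 1851 and 2011 in TFR cells and 1337 and 975 in TFH cells. On d25 it read 4260 in naive, 2091 in Treg, 1455 in TFR and 735 in TFH cells. In PP it read 2343 and 2032 in Treg cells, 774 and 465 in TFR cells, 627 and 482 in GL7- TFH cells and 390 and 224 in GL7+ TFH cells. The order of cell types within pLN was the same at both days, and in PP the TFR cells lay with the TFH cells and not with the Treg cells. When the groups of 2 arrays were set in order of their means, PP TFR and PP GL7- TFH cells overlapped, while each other pair of neighbours did not. Small gaps separated pLN d12 Treg, PP Treg and pLN d12 TFR cells (lowest 2360 against highest 2343, and lowest 2032 against highest 2011), and by the second probe these groups overlapped.

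**Figure D1:**
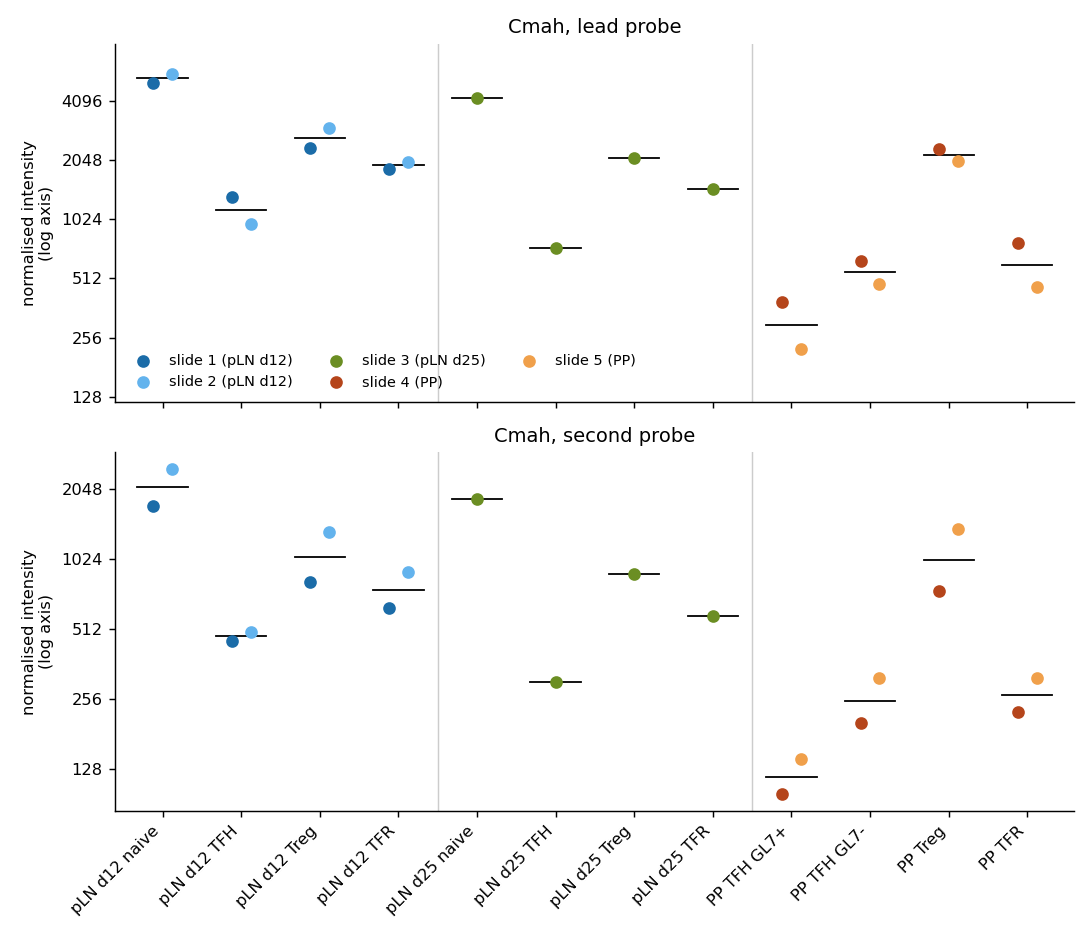
Normalised intensity of the lead (top) and second (bottom) Cmah probe on each of the 20 arrays, log axis, by sorted group; points are single arrays coloured by slide and bars are group means on the log scale. On the lead probe naive T cells sit between 4260 and 5626 and GL7+ TFH cells of PP at 224 and 390.

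To ask whether GL7 staining marks TFH cells that differ in these genes, GL7+ and GL7- TFH cells of PP were compared. None of the 7 members was called, against 0.00898% of all probes (2 of 22264). At an unadjusted p under 0.05 limma singled out 1 of the 7, Cmah, and the methods' t-test singled out 0. Over all 22264 probes the counts were 254 by limma and 556 by the t-test. Cmah was lower in GL7+ cells on both slides: 390 against 627 on slide 4 and 224 against 482 on slide 5. Its log2 fold change was -0.90 (SE 0.32, 95% confidence interval -1.60 to -0.19; unadjusted p = 0.018, adjusted p = 1.0). The second probe read 100 against 202 on slide 4 and 142 against 315 on slide 5, a difference of -1.08 on the log2 scale (adjusted p = 1.0). Both probes thus pointed the same way on both slides, but the difference failed the correction over all probes, also with slide as a fixed block (adjusted p = 0.45) or a random block (adjusted p = 0.20). The B-cell markers summed to 45548 in GL7+ and 25183 in GL7- cells on slide 4, and to 11266 and 3043 on slide 5; their part in the difference was not tested.

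The other 6 members lay between -0.23 and 0.15 on the log2 scale in this comparison, each with an adjusted p of 1.0. St6gal1, the sialyltransferase that completes the epitope, read 5830 and 8153 in GL7+ and 4787 and 8113 in GL7- cells. Its log2 fold change was 0.15 with a 95% confidence interval of -0.74 to 1.04, without a slide term. Within slide 4 the difference was 0.28 and within slide 5 it was 0.0071. B4galt1 (0.13, interval -0.26 to 0.52) and Gne (0.06, interval -0.36 to 0.47) also had intervals that include 0.

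Both kinds of PP TFH cell had far less Cmah than the Treg cells of the same tissue. The log2 fold change from Treg to GL7+ TFH cells was -2.89 (SE 0.32, adjusted p = 2.1e-04), a 7.39-fold lower level, in a comparison that called 9.87% of probes. From Treg to GL7- TFH cells it was -1.99 (SE 0.32, adjusted p = 0.0025), 3.97-fold lower, where 8.27% of probes were called. Cmah was the single member called in either comparison. Within slide 5 the differences were -3.18 and -2.08, and within slide 4 they were -2.59 and -1.90. Slide 4 had more B-cell transcripts, and their part in these differences was not tested. With only the compared groups in the fit, GL7- TFH cells no longer passed against Treg cells (adjusted p = 0.062). The 2 comparisons share their Treg arrays.

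The pLN arrays allow TFH cells to be set against naive T cells, the state from which they arise. Cmah was 4.68-fold lower in TFH cells (log2 fold change -2.23, SE 0.32, adjusted p = 6.8e-04), and it was the 1 member called, where 14.7% of probes were called. The difference was -1.93 within slide 1 and -2.53 within slide 2. On d25, with 1 array per group and no replicate check, it was -2.54. On slide 1 the B-cell markers summed to 25379 in TFH and 13465 in naive T cells, and on slide 2 to 3809 and 12479. Whether they enter the Cmah difference was not tested. Left with a single slide of d12 arrays, the comparison missed the threshold (adjusted p = 0.055 without slide 1 and 0.087 without slide 2).

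B4galt1 and Gne were lower in the same comparison by less than the fold threshold. B4galt1, which builds the N-acetyllactosamine arm that carries the epitope, read 21015 and 15716 in naive T cells and 10902 and 9323 in TFH cells, with no overlap. Its log2 fold change was -0.85 (SE 0.17, adjusted p = 0.0062), and its second probe gave -0.81 (adjusted p = 0.031). Gne, the first and rate-limiting enzyme of sialic acid synthesis, read 6267 and 6750 in naive and 3489 and 4910 in TFH cells. Its log2 fold change was -0.65 (SE 0.19, adjusted p = 0.032). St6gal1 read 5828 and 7991 in naive and 5586 and 9665 in TFH cells, so the groups overlapped and the difference was 0.11 (interval -0.78 to 1.00).

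Treg cells of pLN lay between naive and TFH cells in Cmah, 2.01-fold below the naive level. This difference (log2 -1.01, SE 0.32, adjusted p = 0.15) was not called, in a comparison where 3.76% of probes were called. Cmah alone of the members had an unadjusted p under 0.05, as did 2501 of 22264 probes. The difference was -1.11 within slide 1 and -0.91 within slide 2. It passed once slide entered as a block (adjusted p = 0.014 fixed, 0.0058 random). The other members lay between -0.18 and 0.29.

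TFR cells were compared with the Treg cells from which they develop, in each tissue. In PP, Cmah was 3.64-fold lower in TFR than in Treg cells (log2 -1.86, SE 0.32, adjusted p = 0.0037), the 1 member called where 9.25% of probes were called. The B-cell markers summed to 197107 in the TFR and 132837 in the Treg cells of slide 4, against 9147 and 12582 on slide 5. Their part in the Cmah difference was not tested. The difference was -1.60 within slide 4 and -2.13 within slide 5. It missed the threshold without slide 5 (adjusted p = 0.064) and with only these groups in the fit (adjusted p = 0.13). In pLN d12 the log2 difference was -0.46 (SE 0.32, adjusted p = 0.46), with no member called and 8.35% of probes called; 1 member, B4galt1, had an unadjusted p under 0.05. On d25 it was -0.52. The step from Treg to TFR was thus larger in PP, but the tissue difference itself (log2 -1.40, SE 0.45, adjusted p = 0.31) was not called. That test called 0.548% of probes. Cmah was the 1 member with an unadjusted p under 0.05, which 1818 of 22264 probes also had. With slide as a block the tissue difference passed (adjusted p = 0.026 fixed, 0.013 random).

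B4galt1 was also lower in TFR than in Treg cells of PP. It read 9035 and 9103 in TFR and 15002 and 14342 in Treg cells, which is -0.69 on the log2 scale (SE 0.17, adjusted p = 0.028) and under the fold threshold (within slide 5, -0.66). In pLN d12 it read 11793 and 10557 in TFR and 17228 and 14941 in Treg cells, a difference of -0.52 (adjusted p = 0.088). On d25 it read 12409 in TFR and 18150 in Treg cells. The follicular arrays were thus below the Treg arrays at each site and day. Gne differed by -0.52 in PP (adjusted p = 0.11; within slide 5, -0.38) and by -0.29 in pLN d12 (adjusted p = 0.43).

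Set against GL7+ TFH cells, TFR cells, which were sorted with no regard to GL7, had more Cmah. The log2 difference was 0.76 in pLN d12 (SE 0.32, adjusted p = 0.27; 5.01% of probes called) and 1.02 in PP (SE 0.32, adjusted p = 0.15; 3.44% of probes called). No member was called in either, and Cmah alone had an unadjusted p under 0.05 in each. Of all 22264 probes, 3517 did so in pLN d12 and 2548 in PP. The PP difference was 0.99 within slide 4 and 1.05 within slide 5 and passed with slide as a block (adjusted p = 0.013 fixed, 0.0054 random).

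**Figure D2:**
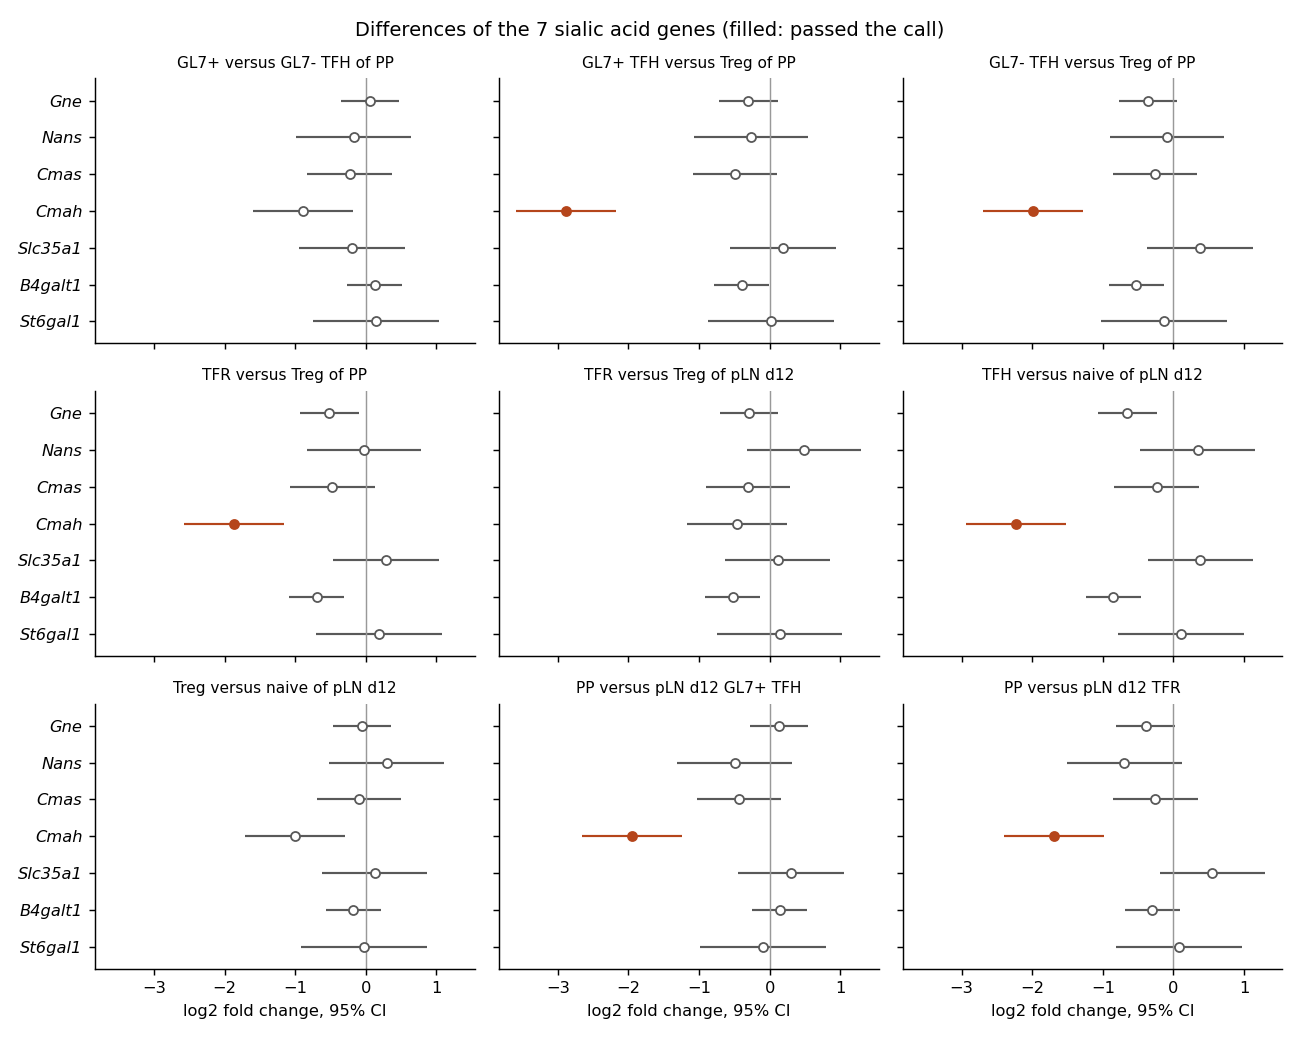
Log2 fold change of the lead probe of each of the 7 genes in 9 comparisons, with 95% confidence intervals from limma; filled points were called. Cmah is the one gene with filled points, between -2.89 and -1.69, and the St6gal1 intervals include 0 in all panels.

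Between the tissues, follicular cells of PP had less Cmah than those of pLN d12, while the difference in Treg cells was not called. The log2 difference was -1.95 for GL7+ TFH cells (SE 0.32, adjusted p = 0.0084; 4.54% of probes called) and -1.69 for TFR cells (SE 0.32, adjusted p = 0.0064; 11.1% of probes called). It was -0.29 for Treg cells (interval -0.99 to 0.42, adjusted p = 0.80, with 2.24% of probes called). There no member had an unadjusted p under 0.05, which 3248 of 22264 probes had. Cmah was the 1 member called for TFH and for TFR cells. The TFH difference lost its call in 6 settings, among them without pLN d12 TFH replicate 1 (adjusted p = 0.056) or PP GL7+ TFH replicate 2 (adjusted p = 0.060) and in a fit of these groups alone (adjusted p = 0.20). The TFR difference lost it without slide 1 (adjusted p = 0.094), without slide 2 (adjusted p = 0.11) and in a fit of these groups alone (adjusted p = 0.094). Tissue and slide cannot be told apart here, since no slide held both tissues, and the labels give immunisation for pLN alone. Between d25 and d12 of pLN, averaged over the 4 cell types, no member was called, and 0.0404% of probes were called. No member had an unadjusted p under 0.05, which 2098 of 22264 probes had. Cmah differed by -0.43 (SE 0.19, adjusted p = 0.53).

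Nans, Cmas and Slc35a1 gave no unadjusted p under 0.05 in any of the 14 comparisons. Nans, the synthase that condenses the sugar with phosphoenolpyruvate, spanned 4446 to 11389, with pLN TFR cells at 9505, 11389 and 9514 the highest of their slides. Its comparisons lay between -0.69 and 0.49 and its smallest adjusted p was 0.24. Cmas, whose probe spans 2645 bases of chromosome 6 and so crosses an intron, ranged from 1255 to 2592, with comparisons between -0.49 and 0.01 (smallest adjusted p = 0.33). Slc35a1, the Golgi transporter, ranged from 839 to 2118, with comparisons between -0.19 and 0.55 (smallest adjusted p = 0.32). Gne ranged from 3489 to 7807, and the pLN d25 Treg cells were its highest array.

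St6gal1 separated by slide. In the fit without a slide term no cell-type difference was called, where a call needs a log2 fold change of 1 or more. Its lead probe (chromosome 16, 23360037 to 23360096) read 4787 to 6102 on the 8 arrays of slides 1 and 4 and 7233 to 9962 on the 12 arrays of slides 2, 3 and 5, with no overlap. Within a slide its highest and lowest arrays differed by 1.09-fold to 1.33-fold. On each slide TFR cells read above Treg cells. In slide order the readings were 6102 against 5646, 8898 against 7914, 8907 against 7233, 6058 against 5761 and 9962 against 8055. Over the comparisons, without a slide term, the log2 fold change of St6gal1 lay between -0.13 and 0.24. Its smallest adjusted p was 0.87. The second probe (23358405 to 23358465) read 319 to 495 on slides 1 and 4 and 245 to 346 on the others, the opposite order with some overlap. It read TFR above Treg cells on each slide but slide 1 (339 against 368). The higher RNA input was on slides 1 and 4, and slide and input cannot be told apart. Each comparison of 2 groups of 2 arrays had an SE of 0.40 for St6gal1 in this fit, which counts slide differences as spread. Over all tested probes the consensus correlation of arrays on a slide was 0.74. Small differences of St6gal1 between cell types on a slide are therefore poorly resolved here.

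**Figure D3:**
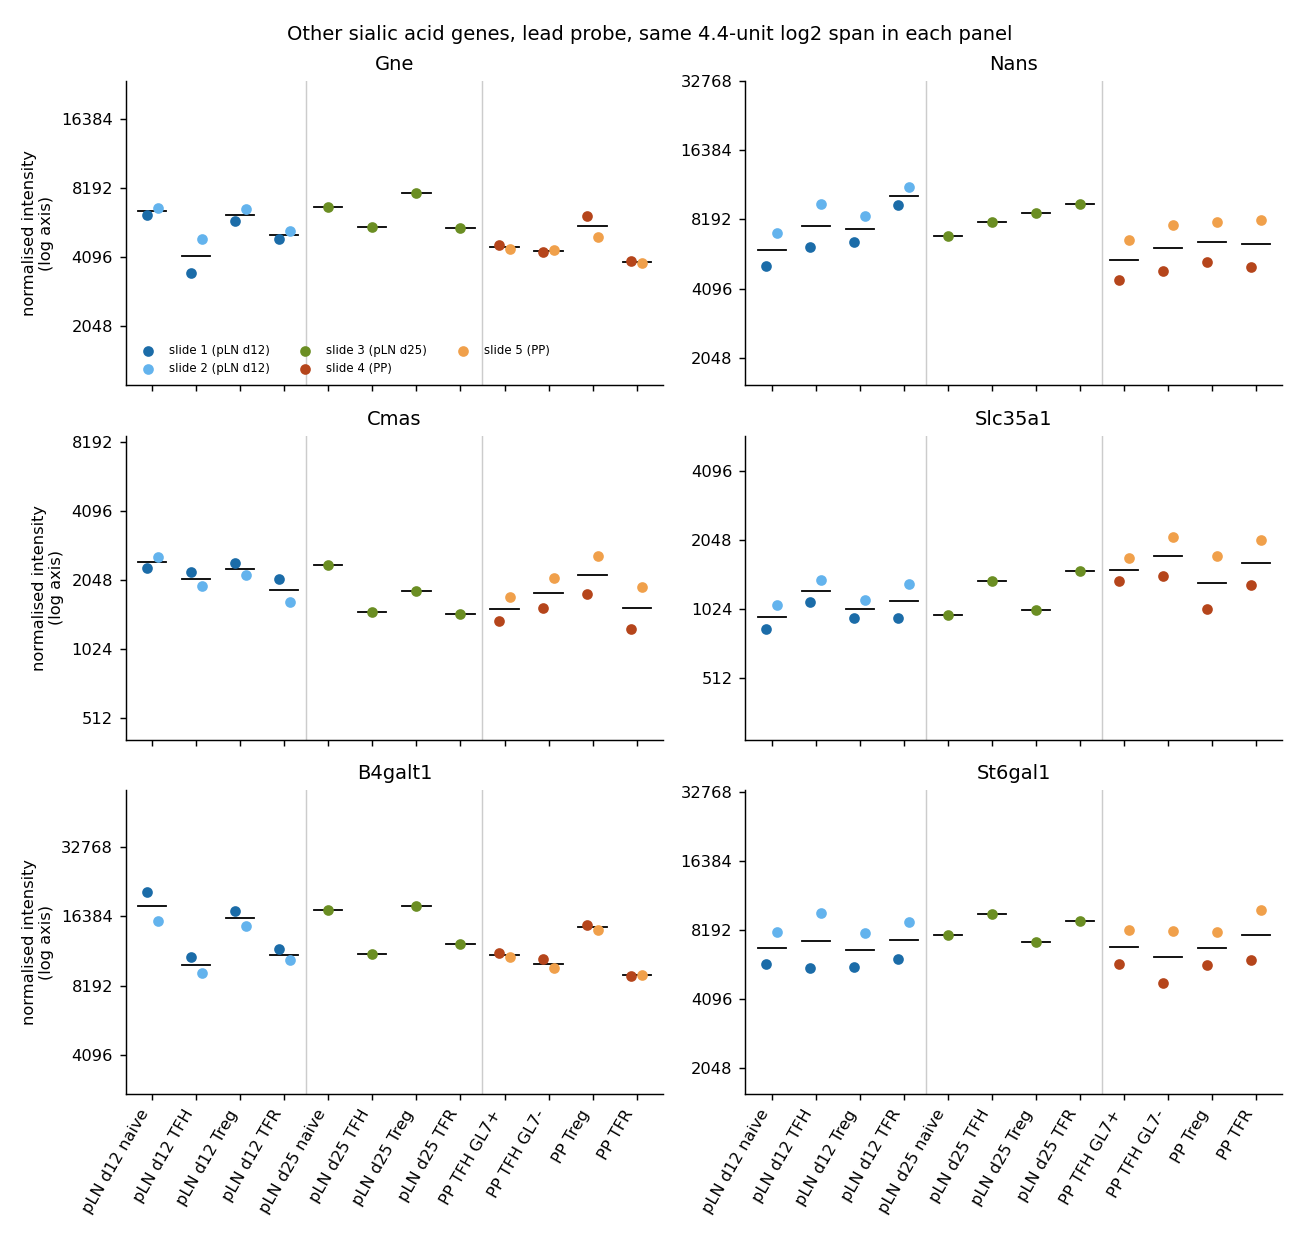
Normalised intensity of the lead probes of Gne, Nans, Cmas, Slc35a1, B4galt1 and St6gal1 on each array, log axis, by sorted group; points are single arrays coloured by slide, bars are group means on the log scale, and each panel covers the same span. B4galt1 is lower in follicular than in naive and Treg cells, and St6gal1 separates by slide, with slides 1 and 4 between 4787 and 6102.

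Adjusted p was under 0.05 for 3 of the 7 members between TFH and naive T cells and for 2 between TFR and Treg cells of PP, whatever the fold. Over all 22264 probes it was so for 4408 and 2691. The members' median log2 fold change was -0.24 between TFH and naive T cells, where the median over all tested probes was -0.09, and -0.48 between TFR and Treg cells of PP, against -0.05 over all probes. Between GL7+ and GL7- TFH cells it was -0.17, against 0.01.

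Other genes of sialic acid and N-glycan metabolism were called in most comparisons. A list of 56 such genes was counted by gene, and 44 had a tested probe. The share of all probes called in either direction is given beside each count. In TFH against naive T cells 10 rose and 3 fell (all probes 14.7%), and in Treg against naive T cells 2 rose and 1 fell (3.76%). In TFR against Treg cells 8 rose and 4 fell in PP (9.25%), and 3 rose and 2 fell in pLN d12 (8.35%). In PP, 7 rose and 4 fell in GL7+ TFH against Treg cells (9.87%), and 8 rose and 3 fell in GL7- TFH cells (8.27%). TFR against TFH cells gave 1 higher and 5 lower in pLN d12 (5.01%), and TFR against GL7+ TFH cells gave 0 and 3 in PP (3.44%). Between tissues 1 rose and 0 fell in Treg cells (2.24%), 1 and 1 in GL7+ TFH cells (4.54%) and 5 and 2 in TFR cells (11.1%), and 1 was called for the tissue difference of the Treg to TFR step (0.548%). Between GL7+ and GL7- TFH cells limma called 0 of 44 (0.00898%), with 1 at an unadjusted p under 0.05 (254 of 22264 probes). Between d25 and d12 it called 0 (0.0404%), with 4 at an unadjusted p under 0.05 (2098 of 22264 probes). The 3 genes of the sugar transport list were not called in any comparison.

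The largest fall was that of St8sia6, an alpha 2,8-sialyltransferase. It read 9549 and 9407 in naive T cells and 249 and 433 in TFH cells of pLN d12, a difference of -4.85 on the log2 scale (SE 0.56, adjusted p = 1.8e-04). In PP it read 8907 and 16078 in Treg cells, 302 and 722 in GL7+ and 276 and 682 in GL7- TFH cells. TFR cells of pLN d12 were between, with 1678 and 2433, while those of PP, with 638 and 1274, overlapped both kinds of TFH cell. In pLN d12 Treg cells it read 9075 and 11747, which overlapped the naive readings.

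Of the 13 other sialyltransferases tested, 5 rose and 2 fell between naive and TFH cells of pLN d12 (all probes 14.7%). St3gal5, which makes the ganglioside GM3, read 231 and 255 in naive T cells and 724 and 920 in TFH cells of pLN d12 (log2 fold change 1.75, SE 0.21, adjusted p = 2.3e-04). In PP it rose by 2.18 from Treg to TFR cells (adjusted p = 1.5e-04; within slide 5, 2.48). St3gal1, which caps core O-glycans in alpha 2,3 linkage, rose by 2.27 from Treg to GL7+ TFH cells (adjusted p = 4.1e-05; within slide 5, 2.34) and by 2.06 to GL7- TFH cells (adjusted p = 9.1e-05; within slide 5, 2.06). St3gal2 rose by 1.96 between naive and TFH cells of pLN (adjusted p = 0.0014), and B3gnt2, which extends lactosamine chains, by 1.02 (adjusted p = 0.0014). The alpha 2,6 enzyme St6galnac2 was not well above background on either PP Treg array and was at least 5.42-fold higher in GL7+ TFH cells (adjusted p = 0.0011) and at least 7.08-fold higher in GL7- TFH cells (adjusted p = 5.6e-04). On slide 5 it read 179 in GL7+ and 251 in GL7- TFH cells. Bounds of this kind set the dim arrays to the lowest intensity that was well above background.

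St6galnac6, which sialylates gangliosides, was at least 12.8-fold higher in TFH than in naive T cells (adjusted p = 8.5e-06), but its second probe gave -0.84 and was not called. B4galt4, a galactosyltransferase, was at least 6.76-fold higher in TFH and at least 6.59-fold higher in Treg than in naive T cells (adjusted p = 4.8e-06 and 2.1e-05). St8sia1, the GD3 synthase, was lower in TFR than in Treg cells by -2.07 in pLN d12 and -1.92 in PP (adjusted p = 2.5e-04 and 1.9e-04; within slide 5, -2.03). It read 1747 and 1764 in pLN d12 TFR cells, against 9783 and 7932 in TFH cells. Uap1, which makes the UDP-GlcNAc from which sialic acid synthesis starts, was lower than in Treg cells by -1.40 in GL7+ and -1.59 in GL7- TFH cells of PP (adjusted p = 0.0058 and 0.0033; within slide 5, -1.42 and -1.47). Renbp, a GlcNAc epimerase, was higher in TFR than in Treg cells of pLN d12 by 1.37 (adjusted p = 0.041). Its lead probe was well above background on only 1 of the 2 Treg arrays there.

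B4galt5, the lactosylceramide synthase, differed between PP and pLN d12 arrays. No slide held both tissues and the labels give immunisation for pLN alone, so tissue, slide and immunisation cannot be told apart. It read 10016 and 10098 in pLN d12 TFR cells and 2923 and 2469 in PP TFR cells (log2 fold change -1.90, SE 0.17, adjusted p = 1.5e-04). In GL7+ TFH cells the tissue difference was -1.57 (adjusted p = 0.0012). From Treg to TFR it went from 5744 and 5358 upward in pLN d12 and from 4285 and 3337 downward in PP, a tissue difference of the step of -1.35 (SE 0.23, adjusted p = 0.040). Its second probe gave -2.38 for TFR cells (adjusted p = 0.052), -1.55 for GL7+ TFH cells (adjusted p = 0.28) and -1.09 for the step, and was called in none of the 3. Cd22, a B-cell lectin that binds alpha 2,6-linked sialic acid, was higher in PP than in pLN d12 by 1.84 in Treg cells (adjusted p = 0.0024) and by 1.88 in TFR cells (adjusted p = 8.0e-04). Its PP readings were 5470 and 6472 on slide 4 and 4138 and 4614 on slide 5 in Treg and TFR cells, and the part of B-cell RNA in them was not tested.

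**Figure D4:**
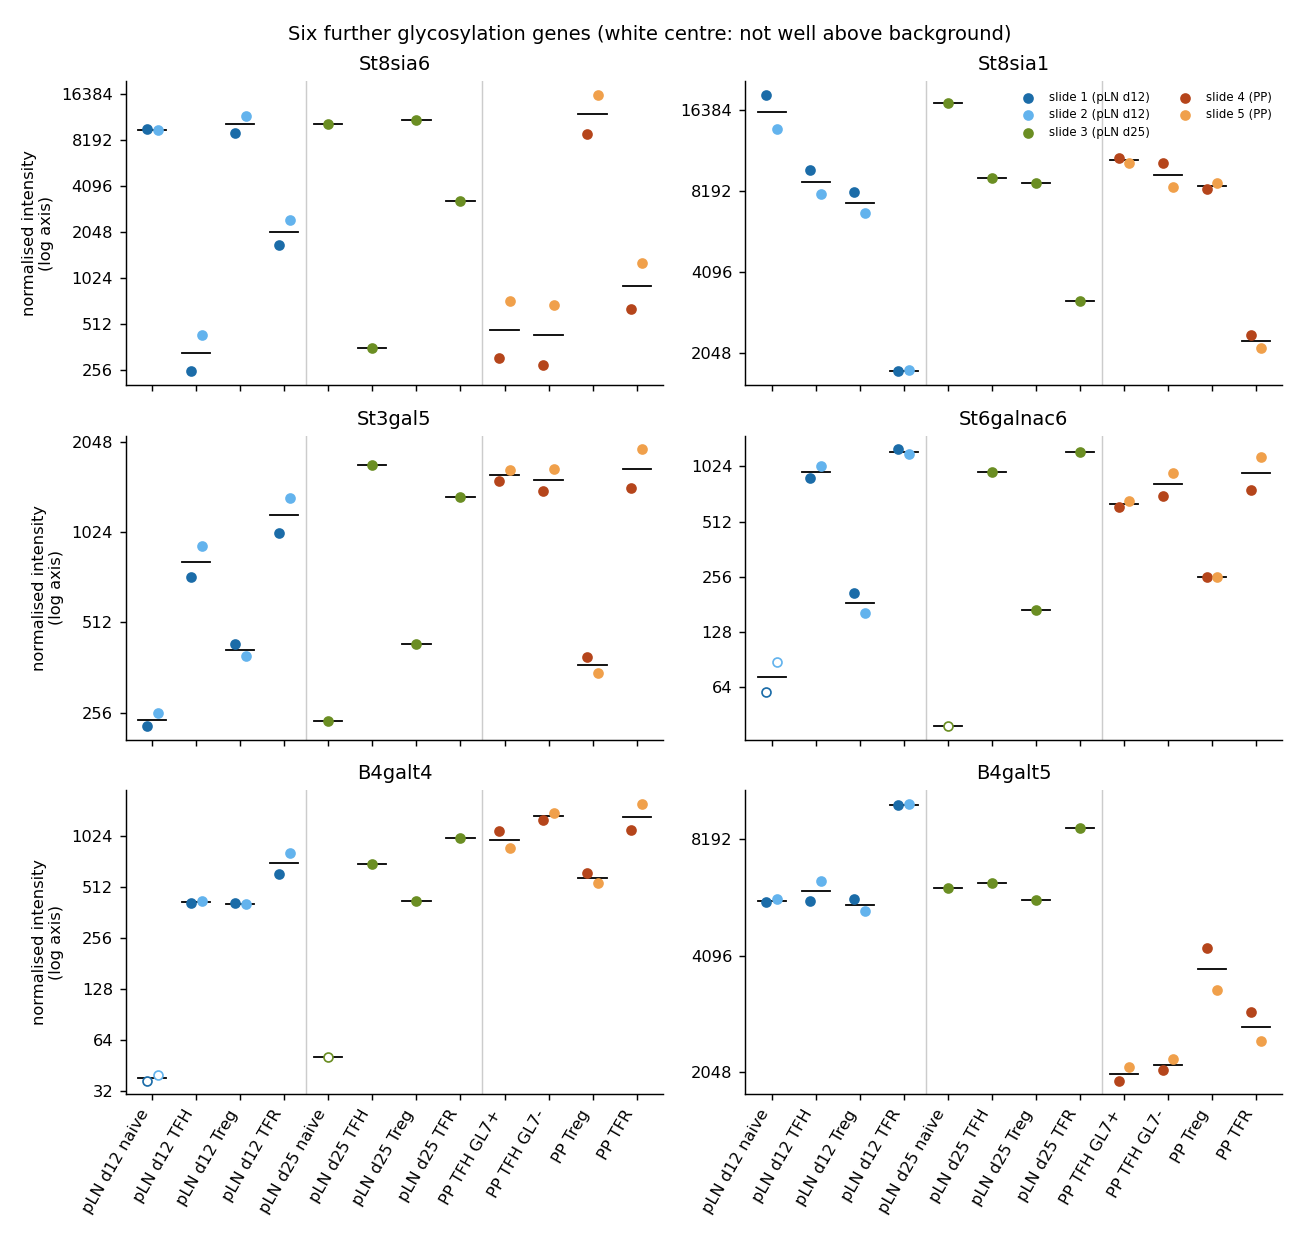
Normalised intensity of St8sia6, St8sia1, St3gal5, St6galnac6, B4galt4 and B4galt5 on each array, log axis, by sorted group; points are single arrays coloured by slide, bars are group means on the log scale, and a white centre marks an array where the probe was not well above background. St8sia6 drops from 9407 and 9549 in naive to 249 and 433 in TFH cells of pLN d12. B4galt5 is lower in GL7+ TFH and TFR cells of PP than in those of pLN d12.

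The genes most like Cmah over the 12 group means were Cwc22 (Pearson r = 0.985), Rasgrp2 (0.972), C330013J21Rik (0.964), Cflar (0.964) and Spice1 (0.963). Rasgrp2, an exchange factor for Rap1, covered a wider range than Cmah: 25323 and 22263 in naive T cells of pLN d12 and 766 and 698 in GL7+ TFH cells of PP. Cwc22, a splicing factor, had the highest r with a range of only 0.92 on the log2 scale. For St6gal1 the closest were 1700030K09Rik (0.885), Tial1 (0.866), Ccdc189 (0.856), Kiz (0.856) and Dgki (0.848), and since St6gal1 followed the slide, groups that share slides enter these values. The values of r describe 12 points that share slides and carry no test.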

How the data were processed

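The files were single-colour Agilent scanner outputs of 20 arrays and the authors' series matrix. Per the file headers, Feature Extraction (version 10.7.3.1 per the submitters' processing notes) gave the deposited intensity of each feature after background subtraction and detrending, together with quality marks. The authors' matrix holds linear intensity averaged over features and, after a quantile step, brought to a 75th percentile of 1500 with a floor of 20.

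Here values were rebuilt from the scanner files by the same steps: outlier features and those outside 1.42 interquartile ranges or with a pixel coefficient of variation above 0.5 were left out, and the geometric mean over 4 features per probe was quantile normalised, scaled, floored and taken to log2. The quantile step makes the arrays share 1 distribution, so a shift of all transcripts would not show. A probe was above background where at least 3 of 4 features were, which held for 43.0% to 58.0% of probes per array; the number of arrays limits the precision.

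One linear model with a mean for each group was fitted to all arrays (limma 3.58.1 in R 4.3.3; 8 residual degrees of freedom), with two-sided p-values adjusted by the Benjamini-Hochberg method over 22264 probes in each of 14 comparisons. A lone array is taken to have the spread of the remaining groups. The test was checked on simulated data that held no slide effect, so the check does not cover differences between slides. Groups came from the labels, and replicate numbers follow deposition order. The main fit had no slide term. The slide, which holds each group of a tissue and day once, was the block only in the alternatives with a slide block. The lead probe is the tested probe with the highest mean. Named were all members, up to 6 pathway genes per comparison by smallest adjusted p, and the 5 genes most like Cmah and St6gal1. Members and lists were chosen with earlier results of these data known. Positions are mm9 from the array annotation, and symbols were updated through RefSeq accessions (27508 probes matched). Exon or UTR positions of probes were not analysed here. Alternatives changed the value source, background correction, normalisation, floor, filter, feature averaging, samples in the fit, slide block, slides, replicates, fold threshold, probe and test.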

Additional observations from a re-analysis of the deposited data

Results flagged for a closer look

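The change of B4galt5 from Treg to TFR cells differed between the tissues by a test of the difference itself (log2 difference -1.35, limma adjusted p = 0.040), which is why it is listed here. By the lead probe TFR cells read higher than Treg cells on both slides of pLN d12 and lower on both slides of PP. The second probe gave -1.09 for the tissue difference of the step and was not called.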

How the results depend on the processing

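The number of the 7 members called was 0 or 1 in each comparison, and 218 recomputed counts were within 1.5 times of it while 24 were not. With adjusted p alone it was 3 for TFH against naive T cells (Cmah, B4galt1 and Gne), where 4408 of 22264 probes passed. It was 2 for TFR against Treg cells of PP, where 2691 passed. With 75th percentile scaling only, 2 members passed the F test. With slide as a fixed or a random block it was 1 in place of 0 for Treg against naive T cells, TFR against GL7+ TFH cells of PP and the tissue difference of the Treg to TFR step. With only the compared groups it was 0 for TFR and GL7- TFH against Treg cells of PP and for both follicular tissue comparisons. It was 0 without slide 1 and without slide 2 for TFH against naive T cells and for both follicular tissue comparisons, and 0 without slide 5 for TFR against Treg cells of PP and for TFH cells between tissues. Leaving out single arrays gave 1 to 2 for TFH against naive T cells (2 without naive replicate 2, where B4galt1 also passed) and 0 to 1 for TFH cells between tissues. Cmah kept its direction in all 14 comparisons under each alternative. Between GL7+ and GL7- TFH cells it ranged from -1.30 to -0.50 and was not called under any. The methods' t-test called 556 probes unadjusted in that comparison, no member among them, and 1 after Benjamini-Hochberg adjustment. Values near 0 turned sign. St6gal1 between TFH and naive T cells was -0.061 without slide 2 and -0.29 to 0.50 without single arrays (-0.12 without naive replicate 1). Between GL7+ and GL7- TFH cells, leaving out single arrays gave -0.23 to 0.53 for St6gal1 (-0.096 without GL7+ replicate 2), -0.51 to 0.16 for Nans (0.12 without GL7+ replicate 1) and -0.48 to 0.086 for Slc35a1, and the second B4galt1 probe gave -0.013. The slide block is the paired analysis of these arrays, since each slide held the 4 groups of a tissue and day once. With 2 arrays per group and no slide block, changes under about 1 on the log2 scale are poorly resolved for St6gal1, Nans and Slc35a1.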
